A study of Mus musculus with 12 samples.

Results

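Expression of 10 genes that coat lipid droplets or break down their triglyceride was followed in mouse liver after knockdown of the long noncoding RNA mGULL and after coexpression of its human counterpart hGULL. The genes were taken by name from a table of 55385 features, and all 10 were found, each under 1 identifier. They are the perilipins Plin2, Plin4 and Plin5, the CIDE genes Cidea, Cideb and Cidec, the lipases Pnpla2, Pnpla3 and Lipe, and the lipase inhibitor G0s2. Livers came from 12 male C57BL/6 mice aged 7 weeks at injection, wild type in every group, killed on day 7 after a total of 500000000 pfu of adenovirus. The 4 Ad-Ctrl mice (GULL_control in the labels) received the Lac and empty pAdv5 viruses, the 4 Ad-shmGULL mice (mGULL_knockdown) the short hairpin virus with the empty one, and the 4 Ad-shmGULL+hGULL mice (hGULL_rescue) the hairpin virus with one that carries hGULL. All 12 therefore carried adenovirus, and the route of injection is given as intravitreal in one section of the study's methods and as retro-orbital in another. Whether feeding was matched between the mice is not given in the sources used here. The levels of mGULL and hGULL were not analysed here, so in these data the groups rest on their labels. The study itself reports qPCR of mGULL knockdown and hGULL overexpression in wild-type mice given the viruses.

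A lipid droplet is a core of triglyceride and cholesteryl ester under a phospholipid monolayer that carries its own proteins. Perilipins coat that surface and regulate the access of lipases. CIDE proteins sit where droplets touch and promote their fusion, and in hepatocytes CIDEB also takes part in loading lipid onto VLDL. Lipolysis is stepwise: adipose triglyceride lipase, encoded by Pnpla2, removes the first fatty acid with help from its coactivator ABHD5 and is blocked by G0S2, hormone-sensitive lipase (Lipe) acts on diacylglycerol, and monoacylglycerol lipase (Mgll) finishes. In the liver, droplets grow in fasting and in steatosis, and several of these genes are known targets of PPARα, of SREBP1 or of insulin signaling.

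The sequences just before the transcription starts of the lipase pair and the inhibitor with the largest differences after knockdown are shown because the study asks whether GULLs act through the CREB coactivator CRTC2 and through SREBP1. They are RefSeq promoter windows of GRCm38.p6, the build of the deposited table, read 5′ to 3′ on the gene's strand, and capitals mark matches to the motifs searched. Pnpla2 is shown from chr7:141454938-141455187 on the plus strand, G0s2 from chr1:193273189-193273438 on the minus strand, and Pnpla3 from chr15:84167740-84167799 on the plus strand, a shorter stretch whose last 24 bases lie inside a transcript that starts further upstream.
Pnpla2: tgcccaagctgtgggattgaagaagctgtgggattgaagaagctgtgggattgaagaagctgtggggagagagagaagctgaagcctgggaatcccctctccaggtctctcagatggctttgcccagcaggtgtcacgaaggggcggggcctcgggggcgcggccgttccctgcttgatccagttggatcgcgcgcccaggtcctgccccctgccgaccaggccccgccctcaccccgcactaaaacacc
G0s2: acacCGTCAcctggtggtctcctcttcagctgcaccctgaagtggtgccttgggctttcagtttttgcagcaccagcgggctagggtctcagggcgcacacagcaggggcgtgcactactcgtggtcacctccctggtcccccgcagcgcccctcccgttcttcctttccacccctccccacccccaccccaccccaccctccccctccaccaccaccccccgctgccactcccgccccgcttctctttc
Pnpla3: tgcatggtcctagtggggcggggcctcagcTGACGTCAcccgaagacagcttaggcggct

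The motifs, searched on both strands of the 250 bases before each start, were the cAMP response element TGACGTCA and its core TGACG, the E-box CACGTG, the sterol response element TCACNCCAC and the nuclear receptor site AGGTCA. The full element TGACGTCA lay at chr15:84167770-84167777, 46 bases before the start used for the Pnpla3 window. The gene's most upstream start is chr15:84167776, so the element spans that start and does not lie wholly before it. This element is present in 1.55% of all 32851 windows. The same Pnpla3 match holds the core TGACG on each strand, so these are not separate matches. G0s2 held the core TGACG, 246 bases before its start on the opposite strand, as did 17.8% of windows. Lipe held the E-box (6.02% of windows), and Plin2 and Plin5 each held AGGTCA (14% of windows). Of the 10 genes, 9 had a window (12 windows in all, since some genes have several starts), and Cidea had none. In the windows of Pnpla2, Cideb, Cidec and Plin4 these letters were not found. A match describes the sequence, and nothing was measured here about binding at it.

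In GRCm38.p6 the lipase genes lie at chr7:141455188-141460743 (Pnpla2), chr15:84167776-84189521 (Pnpla3) and chr7:25379527-25398486 (Lipe), and G0s2 at chr1:193272160-193273188. The perilipins lie at chr4:86626910-86670217 (Plin2), chr17:56100587-56109948 (Plin4) and chr17:56111597-56117606 (Plin5), and the CIDE genes at chr18:67343564-67367794 (Cidea), chr14:55754052-55758424 (Cideb) and chr6:113424634-113435760 (Cidec). Overlaps were taken from GENCODE vM39, a later annotation on a later build than the GENCODE VM24 used for counting, so their sizes and partners may differ there. In vM39, exons of several share bases with a gene on the opposite strand. The longest are Plin4 with Hdgfl2 over 3124 bases, Lipe with 4732471J01Rik over 1326, Cideb with Nop9 over 1136 and Pnpla2 with Gm72429 over 867. Shorter ones are Cidea with B430212C06Rik over 379 bases, Cidec with Gm52871 over 282, Cideb with Gm56758 over 258 and G0s2 with Lamb3 over 119. Since the strand setting of the counting is not given, reads of such partners cannot be told apart from those of these genes.

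Values are TPM, a length-normalized share of transcripts that sums to 1000000 in every mouse, so that levels may be compared between genes but read depth is unknown. Tests used log2(TPM + 1) in 1 limma model of the 3 groups over the 16378 genes averaging 1 TPM or more, a filter that all 10 genes passed. A gene is said to pass the study's threshold when its log2 fold change, up or down, exceeds 0.5 and its unadjusted P is under 0.05, and its Benjamini-Hochberg adjusted p over all tested genes is given beside it. Between 15525 and 16929 features per mouse were above 1 TPM, and the 20 most abundant genes took 24.6% to 34.2% of all TPM. Across all tested genes the median difference was not 0 on the log2 scale, being 0.087 for Ad-shmGULL against Ad-Ctrl, 0.093 for rescue against knockdown and 0.17 for rescue against control. Nothing in the labels says whether the mice were housed or processed together. In whole liver, fewer cells of a type and less RNA per cell cannot be told apart.

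In Ad-Ctrl liver the order of levels was Cideb, Plin2, G0s2, Pnpla2, Plin5, Cidec, Plin4, Lipe, Cidea and Pnpla3. Cideb averaged 310.4 TPM (SD 18.7, n = 4) and Plin2 274 TPM (SD 57.0, n = 4), and their ranges overlapped, as did those of Plin2 and G0s2 and of G0s2 and Pnpla2. Plin5 (71.2 to 89.9 TPM) lay apart from Pnpla2 above it and from Cidec below it. Cidec, Plin4 and Lipe overlapped their neighbors between 4.96 and 37.8 TPM, and Cidea and Pnpla3 were both at or below 2.02 TPM in every control mouse. Cideb made up 93.5% of the summed CIDE TPM in Ad-Ctrl (SD 3.93, n = 4), Plin2 67.3% of the summed perilipin TPM (SD 3.99, n = 4, over Plin1 to Plin5), and Pnpla2 91.3% of the TPM of the 3 lipases (SD 1.13, n = 4). The liver samples thus expressed mainly Cideb, Plin2 and Pnpla2 of these families, whereas Plin1, the perilipin of adipocytes, was at 0.121 TPM or less in Ad-Ctrl.

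**Figure D1:**
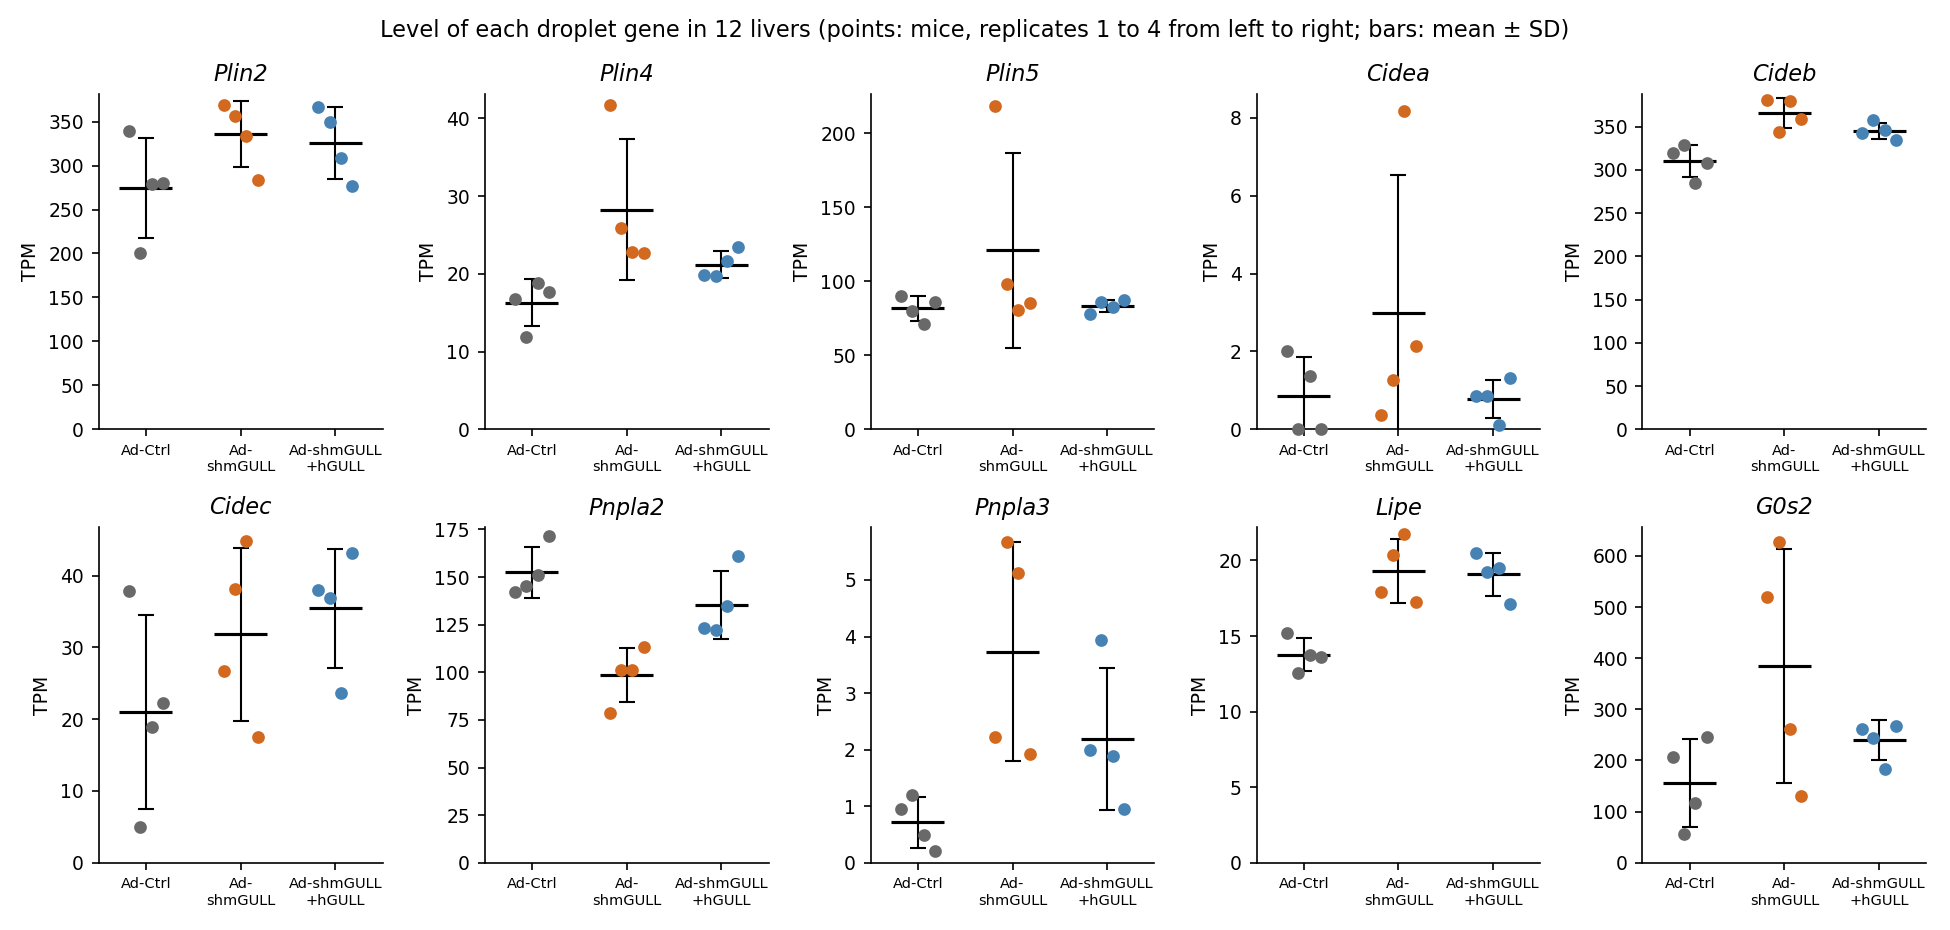
TPM of each of the 10 genes (vertical axis, from 0) in the 4 mice of each of the 3 groups; points are mice in order of replicate number, and bars are the mean ± SD (a bar that would reach below 0 stops at the axis). The 4 Pnpla2 points of Ad-shmGULL, 78.8 to 113 TPM, lie below all points of the other groups, and a single Ad-shmGULL mouse stands far above the rest for Plin5 (219 TPM).

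Pnpla2, whose product starts triglyceride hydrolysis, fell after mGULL knockdown. It was 142, 145, 151 and 172 TPM in the 4 Ad-Ctrl mice, 78.8, 101, 101 and 113 TPM in Ad-shmGULL and 123, 122, 135 and 161 TPM in Ad-shmGULL+hGULL. All 4 knockdown mice lay below all 4 control mice and also below all 4 rescue mice, whereas the rescue and control ranges overlapped. Knockdown against control gave Pnpla2 a log2 fold change of -0.63 (standard error 0.12, limma adjusted p = 0.0186), a mean level 0.647 times that of Ad-Ctrl (exact two-sided permutation test, p = 0.0286, the smallest that 4 mice against 4 allow). Between rescue and knockdown Pnpla2 differed by 0.46 (standard error 0.12, unadjusted P = 0.00234, adjusted p = 0.318 from limma; exact two-sided permutation test, p = 0.0286), a difference that stayed below the fold change of the study's threshold. Rescue against control gave -0.18 (standard error 0.12, adjusted p = 0.366). The knockdown difference was negative in all 18 alternatives tried (-0.74 to -0.53), but the adjusted p from limma was 0.0524 without Ad-Ctrl replicate 3, 0.0560 without Ad-Ctrl replicate 4 and 0.0602 with only those 2 groups in the model.

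Lipe, which encodes hormone-sensitive lipase, moved the other way and at a level about one order of magnitude lower. Its TPM were 15.2, 12.5, 13.7 and 13.6 in Ad-Ctrl, 17.9, 20.4, 21.8 and 17.2 in Ad-shmGULL and 20.5, 19.2, 19.5 and 17.1 in Ad-shmGULL+hGULL. Every mouse that received the hairpin virus, with or without hGULL, was above every control mouse. Of all tested genes, 6.93% lay wholly above control after knockdown and 21.4% did so in rescue. Lipe differed by 0.46 on the log2 scale after knockdown (standard error 0.095, limma adjusted p = 0.0262) and by 0.44 between rescue and control (standard error 0.095, adjusted p = 0.0426), and neither reached the fold change of the study's threshold. Between rescue and knockdown it was -0.014 (standard error 0.095, adjusted p = 0.964). For Lipe after knockdown, the adjusted p from limma rose to 0.0789 without Ad-Ctrl replicate 2, 0.0740 without Ad-Ctrl replicate 3, 0.0627 without Ad-Ctrl replicate 4, 0.0724 without Ad-shmGULL replicate 2 and 0.111 with only those 2 groups. The Lipe difference of rescue from control was 0.25 after median-of-ratios scaling (adjusted p = 0.222), and its adjusted p was above 0.05 in each fit that left out 1 mouse except the one without Ad-Ctrl replicate 1.

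Pnpla3, a patatin-like lipase of lipid droplets whose transcription is known to follow SREBP1, rose from very low values. It was 0.944, 1.21, 0.494 and 0.208 TPM in Ad-Ctrl, 2.22, 5.66, 5.12 and 1.92 TPM in Ad-shmGULL and 1.996, 3.94, 1.88 and 0.946 TPM in the rescue group. The knockdown and control ranges did not overlap, and the rescue range overlapped both. For Pnpla3 the knockdown difference was 1.41 on the log2 scale (standard error 0.33, limma adjusted p = 0.0430). Between rescue and control it was 0.86 (standard error 0.33, unadjusted P = 0.0245, adjusted p = 0.144), and between rescue and knockdown -0.55 (standard error 0.33, adjusted p = 0.560). The rescue and control difference of Pnpla3 no longer passed the threshold without Ad-Ctrl replicate 3, Ad-Ctrl replicate 4 or rescue replicate 2. The added 1 holds back the fold change at such levels: with 0.1 in its place, the Pnpla3 knockdown difference was 2.29 (adjusted p = 0.0421). The adjusted p from limma for Pnpla3 after knockdown was above 0.05 without Ad-Ctrl replicate 2 (0.0689), replicate 3 (0.111) or replicate 4 (0.0996), and without Ad-shmGULL replicate 2 (0.111) or replicate 3 (0.0610). It was also above 0.05 with no filter (0.0926), only those 2 groups (0.0908), no variance trend (0.0533) and array weights (0.0585).

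Together the 3 lipases shifted in makeup. Pnpla2 made up 80.9% of their summed TPM in Ad-shmGULL (SD 3.08, n = 4) and 86.2% in the rescue group (SD 2.65, n = 4), against 91.3% in Ad-Ctrl, while the share of Lipe was 16.0% in Ad-shmGULL (SD 2.18, n = 4) and 12.3% in rescue (SD 1.96, n = 4), against 8.29% in Ad-Ctrl (SD 0.963, n = 4). The summed TPM of the 3 ran from 98.9 to 132 in Ad-shmGULL and from 158 to 185 in Ad-Ctrl, without overlap. These shares are descriptions and were not tested.

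G0s2 encodes a small protein that binds and inhibits the Pnpla2 product. Its TPM were 206, 55.8, 117 and 246 in Ad-Ctrl, 520.3, 628, 262 and 131 in Ad-shmGULL and 262, 244, 183 and 268 in the rescue group. The knockdown mice held both the highest value of the 12 and one below the mean of Ad-Ctrl, so that the groups overlapped, and the rescue mice were the least spread. Between knockdown and control G0s2 differed by 1.26 on the log2 scale (standard error 0.50, unadjusted P = 0.0253, limma adjusted p = 0.176; exact two-sided permutation test, p = 0.114), past the study's threshold but not past an adjusted p of 0.05. Between rescue and knockdown it was -0.46 (standard error 0.50, adjusted p = 0.732) and between rescue and control 0.81 (standard error 0.50, adjusted p = 0.322). The G0s2 difference after knockdown was 0.84 without Ad-Ctrl replicate 2, 1.19 without Ad-Ctrl replicate 3, 1.04 without Ad-shmGULL replicate 1, 0.95 without Ad-shmGULL replicate 2 and 0.49 with array weights, and each of these left it short of the study's threshold. Across the 18 alternatives G0s2 ran from -0.89 to -0.0034 between rescue and knockdown (-0.23, -0.14 and -0.89 without Ad-shmGULL replicates 1, 2 and 4, and the smallest with array weights) and from 0.39 (without Ad-Ctrl replicate 2) to 1.09 between rescue and control.

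The ratio of G0s2 to Pnpla2 TPM within a mouse does not depend on how that mouse was scaled. It was 1.45, 0.384, 0.776 and 1.43 in Ad-Ctrl, 6.60, 6.22, 2.58 and 1.15 in Ad-shmGULL and 2.13, 1.995, 1.36 and 1.67 in the rescue group. In 3 of 4 knockdown mice the ratio exceeded every control and every rescue value, and the remaining knockdown mouse (replicate 4) lay within the control range. The geometric mean was 3.75 times that of Ad-Ctrl after knockdown, a log2 difference of 1.91 (exact two-sided permutation test, p = 0.0857), so the difference did not exceed what the spread between mice allows. The log2 difference was -0.92 between rescue and knockdown (exact permutation test, p = 0.229) and 0.99 between rescue and control (p = 0.0857, exact permutation test).

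**Figure D2:**
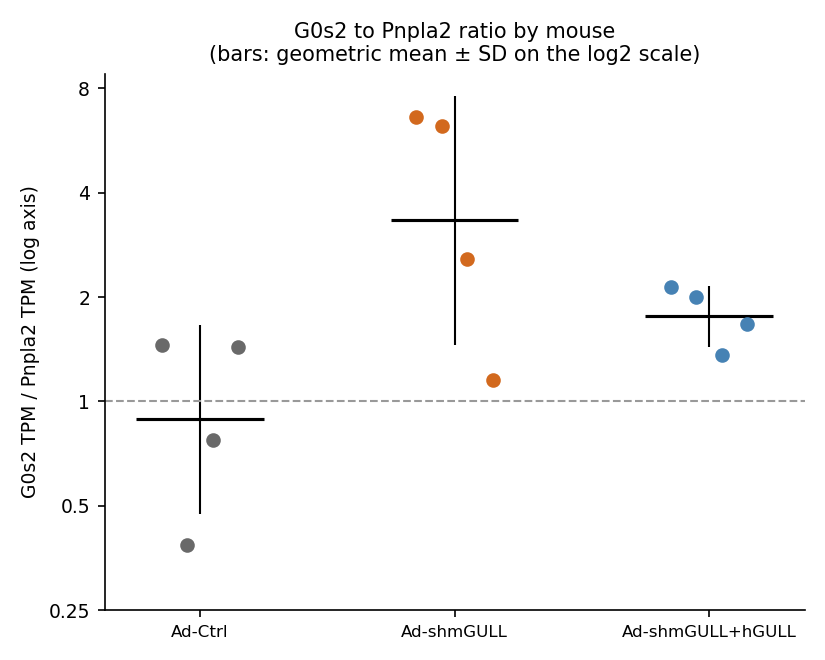
Ratio of G0s2 TPM to Pnpla2 TPM in each of the 12 mice by group, on a log axis, with the geometric mean and the SD of the log2 ratio as bars. Ad-Ctrl runs from 0.384 to 1.45, Ad-shmGULL from 1.15 to 6.60 and the rescue group from 1.36 to 2.13, and the knockdown mice spread most.

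Of the perilipins, Plin4, a coat protein of small droplets best known from adipocytes and muscle, showed the clearest difference. Its TPM were 16.8, 11.9, 18.8 and 17.7 in Ad-Ctrl, 41.7, 25.9, 22.7 and 22.6 in Ad-shmGULL and 19.9, 19.8, 21.7 and 23.5 in the rescue group. All knockdown mice and all rescue mice were above all control mice, and Ad-shmGULL replicate 1 was the highest of the 12. Such separation upward from control held for 6.93% of tested genes after knockdown and 21.4% in rescue. In Ad-shmGULL against Ad-Ctrl, Plin4 differed by 0.73 on the log2 scale (standard error 0.18, unadjusted P = 0.00169, adjusted p = 0.0501 from limma; exact two-sided permutation test, p = 0.0286), which passed the study's threshold. It was 0.53 without Ad-shmGULL replicate 1 (adjusted p = 0.0614) and 0.82 without Ad-shmGULL replicate 3 (adjusted p = 0.0338). Plin4 was 0.38 higher in rescue than in control (standard error 0.18, adjusted p = 0.221) and -0.36 between rescue and knockdown (standard error 0.18, adjusted p = 0.507). The Plin4 difference of rescue from control was 0.24 without Ad-Ctrl replicate 2 and 0.18 after median-of-ratios scaling, and that of rescue from knockdown was -0.16 without Ad-shmGULL replicate 1.

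Plin5, the perilipin of oxidative tissues that tethers droplets to mitochondria, lies 1648 bases from Plin4 on chromosome 17. It was 89.9, 79.7, 71.2 and 85.7 TPM in Ad-Ctrl, 219, 98.4, 80.9 and 85.3 TPM in Ad-shmGULL and 78.2, 85.7, 82.5 and 87.6 TPM in the rescue group. Apart from Ad-shmGULL replicate 1, 11 mice lay between 71.2 and 98.4 TPM. With that mouse the log2 difference of Plin5 from Ad-Ctrl was 0.44 (standard error 0.24, limma adjusted p = 0.338) and 0.11 without it (adjusted p = 0.507).

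Plin2, the main perilipin of hepatocyte droplets, was 339, 200.1, 279 and 280.1 TPM in Ad-Ctrl, 369, 356, 334 and 284 TPM in Ad-shmGULL and 367, 350.2, 308 and 277 TPM in the rescue group. All 3 groups overlapped. Plin2 differed by 0.31 on the log2 scale after knockdown (standard error 0.15, adjusted p = 0.272 from limma) and 0.26 between rescue and control (standard error 0.15, adjusted p = 0.286). Without Ad-Ctrl replicate 2 these Plin2 differences were 0.16 and 0.12, and after median-of-ratios scaling 0.20 and 0.058. The 2 perilipins outside the set differed from each other in level: Plin3, which is found in most tissues, ran from 31.5 to 34.2 TPM in Ad-Ctrl, 37.2 to 47.7 in Ad-shmGULL and 35.8 to 47.0 in rescue, while Plin1 did not exceed 0.138 TPM in any mouse. Plin3 differed by 0.37 after knockdown (standard error 0.097, limma adjusted p = 0.0574), without overlap between the groups.

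Among the CIDE genes, Cideb was the most even. It was 319, 329, 285 and 308 TPM in Ad-Ctrl, 380.4, 344, 379.8 and 359 TPM in Ad-shmGULL and 342, 357, 346 and 335 TPM in the rescue group. Both hairpin groups lay wholly above Ad-Ctrl, as did 6.93% of tested genes after knockdown and 21.4% in rescue. The Cideb difference was small, a log2 fold change of 0.24 after knockdown (standard error 0.070, unadjusted P = 0.00498, adjusted p = 0.0812 from limma) and 0.15 between rescue and control (standard error 0.070, adjusted p = 0.188). After median-of-ratios scaling the Cideb knockdown difference was 0.13 (adjusted p = 0.535). For rescue against control, the difference relative to the median of all tested genes was -0.018, and median-of-ratios scaling turned it to -0.050.

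Cidec, known as FSP27 in adipocytes and induced in fatty liver, was 37.8, 4.96, 18.9 and 22.2 TPM in Ad-Ctrl, 26.7, 38.1, 44.8 and 17.5 TPM in Ad-shmGULL and 38.0, 36.8, 23.7 and 43.2 TPM in the rescue group. The control mice alone covered most of the range of the other groups. Cidec differed by 0.78 on the log2 scale after knockdown (standard error 0.47, adjusted p = 0.379 from limma) and 0.98 between rescue and control (standard error 0.47, adjusted p = 0.209). Without Ad-Ctrl replicate 2, the lowest mouse, the Cidec differences were 0.24 and 0.45, and array weights gave 0.44 for the knockdown.

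Cidea, a CIDE gene of brown fat that also appears in fatty liver, was among the lowest of the 10 genes. It was listed at 2.02, 0, 1.37 and 0 TPM in Ad-Ctrl, 0.363, 1.26, 8.19 and 2.13 TPM in Ad-shmGULL and 0.843, 0.860, 0.119 and 1.31 TPM in the rescue group. The single value above 2.13 TPM belonged to Ad-shmGULL replicate 3. Cidea differed by 0.91 after knockdown (standard error 0.53, limma adjusted p = 0.370), and a listed 0 does not show that the gene was not transcribed. The Cidea difference was 0.38 without Ad-shmGULL replicate 3 and 2.14 with 0.1 in place of the added 1. Among the 6 adipocyte markers, Lep and Ucp1 were at 0 in every mouse. Adipoq, the adiponectin gene, was at 0 in all Ad-Ctrl mice and reached 0.215 TPM in Ad-shmGULL, where 2 of 4 mice were at 0, and 0.0973 TPM in rescue. Retn, the resistin gene, was at 0.051 TPM or less in Ad-Ctrl, 0.128 to 0.942 TPM in Ad-shmGULL and up to 0.340 TPM in rescue, so that its knockdown and control ranges did not overlap, at levels too low for the tested set. The summed TPM of the 6 was 2.67 to 10.6 in Ad-Ctrl, 2.77 to 38.0 in Ad-shmGULL and 6.10 to 9.98 in the rescue group, and the highest, in Ad-shmGULL replicate 3, came from Cfd, an adipsin gene (37.9 TPM). The Cfd medians were 3.80 TPM in Ad-Ctrl, 3.89 in Ad-shmGULL and 6.80 in rescue. Plin1, also one of the 6, went the other way from Retn, averaging 0.0456, 0.0134 and 0.0381 TPM in the same order. The part of these markers in the values of Cidea, Cidec, Plin4 and Lipe was not tested.

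**Figure D3:**
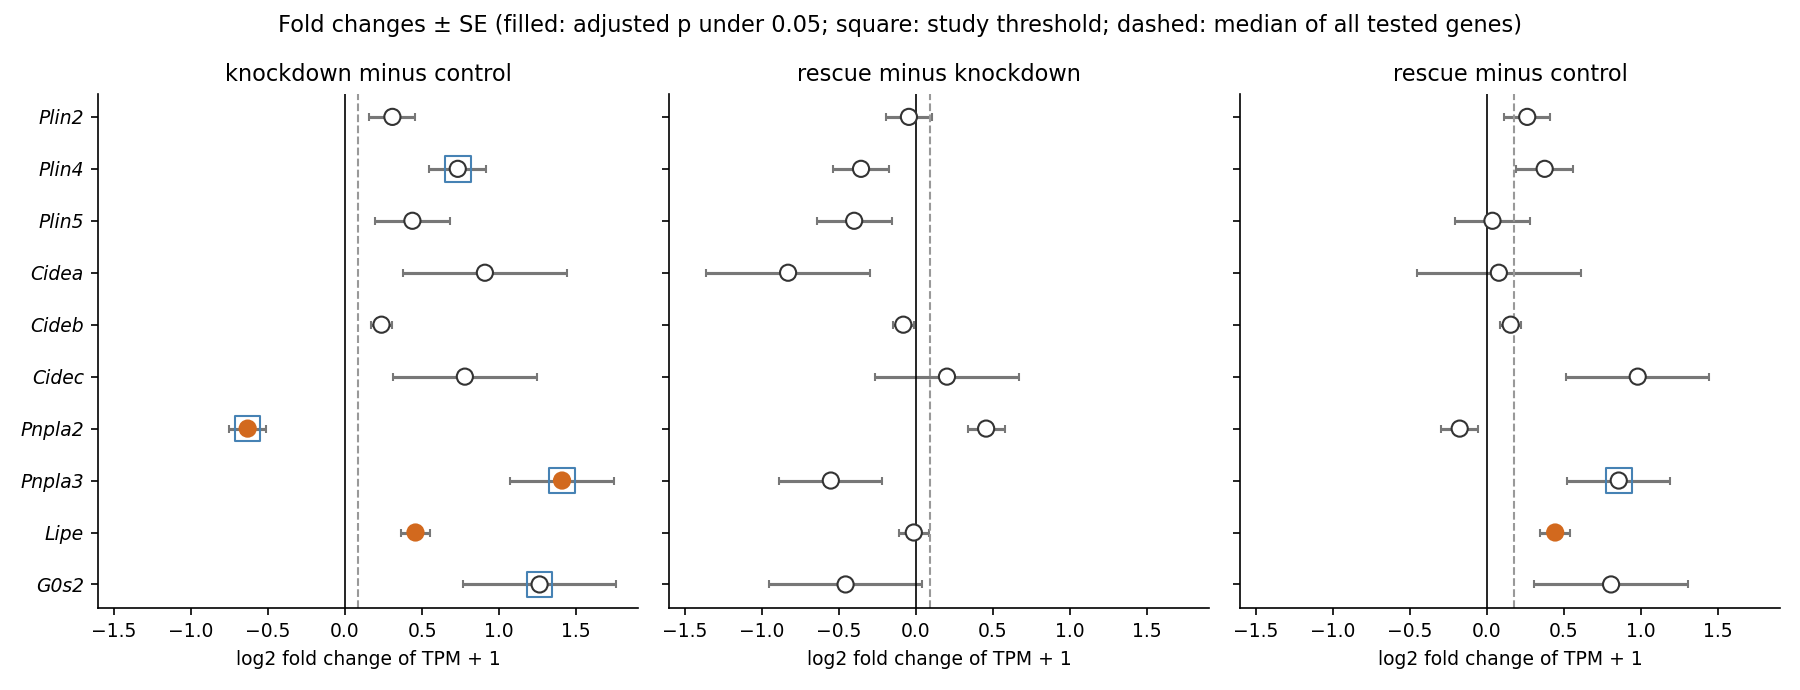
Log2 fold change of TPM + 1 with its standard error for the 10 genes (rows) in the 3 comparisons (panels), where filled points have an adjusted p under 0.05, squares pass the study's threshold and dashed lines are the median of all tested genes. Pnpla2 is the only one of the 10 left of 0 after knockdown, and 4 genes carry the square of the study's threshold there, against 0 between rescue and knockdown and 1 (Pnpla3) between rescue and control.

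Read as a set after mGULL knockdown, 4 of 10 genes passed the study's threshold, where 7.65% of all tested genes did (5.35% higher and 2.3% lower): Plin4, Pnpla3 and G0s2 were higher and Pnpla2 lower. The 10 genes were chosen with earlier results of these data known, so the shares given here describe the set and do not test it. An adjusted p under 0.05 was reached by 3 of 10 (Pnpla2, Pnpla3 and Lipe), against 3.23% of tested genes (2.44% higher and 0.794% lower), and an unadjusted P under 0.05 by 6 of 10, against 20.2%. Of the 10, 9 had a positive log2 fold change, as did 65.5% of tested genes, and their median was 0.59 against 0.087. The ranges of knockdown and control did not overlap for 5 of 10 (Plin4, Cideb, Pnpla3 and Lipe higher, Pnpla2 lower), which held for 8.99% of tested genes (6.93% higher and 2.06% lower). Without Ad-Ctrl replicate 1 the number past the threshold was 6, with Cidec and Lipe added, and without Ad-shmGULL replicate 4 it was also 6, with Lipe and Plin5 added. The number over all tested genes rose as well, from 1253 to 1646 without Ad-Ctrl replicate 1 and to 1348 without Ad-shmGULL replicate 4. The directions of all 10 knockdown differences were kept after median-of-ratios scaling, whereas the split over all genes moved from 876 higher and 377 lower to 608 and 571.

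Between Ad-shmGULL+hGULL and Ad-shmGULL, 0 of 10 genes passed the study's threshold (3% of tested genes, 2.33% higher and 0.672% lower) and 0 of 10 had an adjusted p under 0.05 (0% of tested genes in limma). At an unadjusted P under 0.05, 1 of 10 did, Pnpla2, where 10.7% of tested genes did (1757 genes), and Pnpla2 was also the 1 gene of the 10 whose ranges did not overlap, where 6.38% of tested genes lay apart (5.4% higher and 0.983% lower). The count past the threshold was 1 without Ad-shmGULL replicate 1 (Cidea), without Ad-shmGULL replicate 3 (Plin5) or without rescue replicate 2 (Pnpla3), and 2 without Ad-shmGULL replicate 4 (Pnpla2 and Pnpla3). The count over all tested genes was 492 in the main fit and 361, 571, 438 and 616 in these fits, in the same order. For the 10 genes in the main fit, the signs also leaned down. The difference was negative in 8 of 10, with a median of -0.22, while 70.9% of tested genes had a positive difference. Between rescue and control, 1 of 10 passed the study's threshold (Pnpla3, against 7.49% of tested genes, 6.84% higher and 0.641% lower) and 1 of 10 had an adjusted p under 0.05 (Lipe, against 2.15% of tested genes, 2.12% higher and 0.0244% lower). An unadjusted P under 0.05 was reached by 3 of 10, against 25.3%, and 9 of 10 differences were positive, against 81.9%, although those of Plin5 and Cideb turned negative after median-of-ratios scaling. Ranges did not overlap for Plin4, Cideb and Lipe, all higher in rescue, in a comparison where 22.3% of tested genes lay apart (21.4% higher and 0.855% lower). The comparisons share mice, so they are given side by side and not combined.

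The mice of a group did not rank alike across the genes. Ad-Ctrl replicate 2 was the lowest control for 6 of the 10 (Plin2, Plin4, Cidea, Cidec, Lipe and G0s2, with Cidea tied at 0 with replicate 4), and it was also the lowest for 46.9% of all tested genes. Ad-shmGULL replicate 4 was the lowest knockdown mouse for Plin2, Plin4, Cidec, Pnpla3, Lipe and G0s2 and the highest for Pnpla2, though it was lowest for only 17.9% of tested genes. Ad-shmGULL replicate 1 was the highest for Plin2, Plin4, Plin5 and Cideb and the lowest for Cidea and Pnpla2, and among all tested genes it was the highest for 17.2% and the lowest for 44.1%. Without Ad-shmGULL replicate 4, the log2 fold change after knockdown was 1.70 for G0s2 (adjusted p = 0.0741 from limma) and -0.70 for Pnpla2 (adjusted p = 0.0207).

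Of 20 further lipases and lipolysis regulators, 19 were tested, with a list median of 0.13 after knockdown (0.087 over all tested genes). The study's threshold was passed there by 7.65% of all tested genes (5.35% higher and 2.3% lower). Of the 19, 4 passed it, all higher. Among them were Abhd6, a monoacylglycerol hydrolase (59.1 TPM in Ad-Ctrl, 103 in Ad-shmGULL, log2 fold change 0.79, adjusted p = 0.0156 from limma), Ces1d, a triacylglycerol hydrolase of the endoplasmic reticulum (679 and 1027 TPM, 0.61, adjusted p = 0.0295), and Lipa, the lysosomal acid lipase (83.9 and 126 TPM, 0.58, adjusted p = 0.0728). The Ces1d value is uncertain, since its reads can be shared with near-identical carboxylesterase genes. Mgll, the last enzyme of lipolysis, was 116 TPM in Ad-Ctrl and 166 TPM in Ad-shmGULL, a log2 fold change of 0.50 just short of the fold change required (adjusted p = 0.0445). Abhd5, the coactivator of the Pnpla2 product, was 15.5 and 19.5 TPM (0.29, adjusted p = 0.185). Abhd6, Ces1d and Lipa also passed between rescue and control (7.49% of all tested genes did), and 0 of 19 passed between rescue and knockdown (3% did).

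Of 23 genes for droplet formation and resident proteins, 22 were tested. Over all tested genes, 7.65% passed the study's threshold after knockdown (5.35% higher and 2.3% lower). Between rescue and control 7.49% did (6.84% higher and 0.641% lower). After knockdown 3 passed the threshold, all higher (list median 0.22): Acsl3, an acyl-CoA synthetase of nascent droplets (13.2 TPM in Ad-Ctrl and 20.2 in Ad-shmGULL, 0.57, adjusted p = 0.0139 from limma), Tmem159, the seipin partner promethin (2.27 and 3.74 TPM, 0.56, adjusted p = 0.0870), and Nsdhl, a sterol dehydrogenase found on droplets (43.9 and 67.0 TPM, 0.55, adjusted p = 0.172). Between rescue and control 1 passed, the droplet hydrolase Ldah (22.3 and 32.3 TPM, 0.51, adjusted p = 0.0358), and Hsd17b13, a liver droplet enzyme, was 379 and 521 TPM (0.47, adjusted p = 0.0426). Of the 18 transcription factors known to act on droplet genes, all tested, Srebf1 (96.5 and 159 TPM, 0.72, adjusted p = 0.0373) and Pparg (16.1 and 23.1 TPM, 0.57, adjusted p = 0.220) passed after knockdown, both higher, with a list median of 0.040. Ppara was 212 and 198 TPM (-0.11, adjusted p = 0.554). Between rescue and control, Pparg (24.6 TPM in rescue, 0.68, adjusted p = 0.127) and Mlxipl, which encodes ChREBP (148 and 214 TPM, 0.53, adjusted p = 0.0441), passed. Relative to the median of all tested genes, the differences of rescue from control were 0.34 for Ldah, 0.29 for Hsd17b13 and 0.35 for Mlxipl. An adjusted p under 0.05 from limma was reached in that comparison by 352 tested genes, and by 11 after median-of-ratios scaling.

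**Figure D4:**
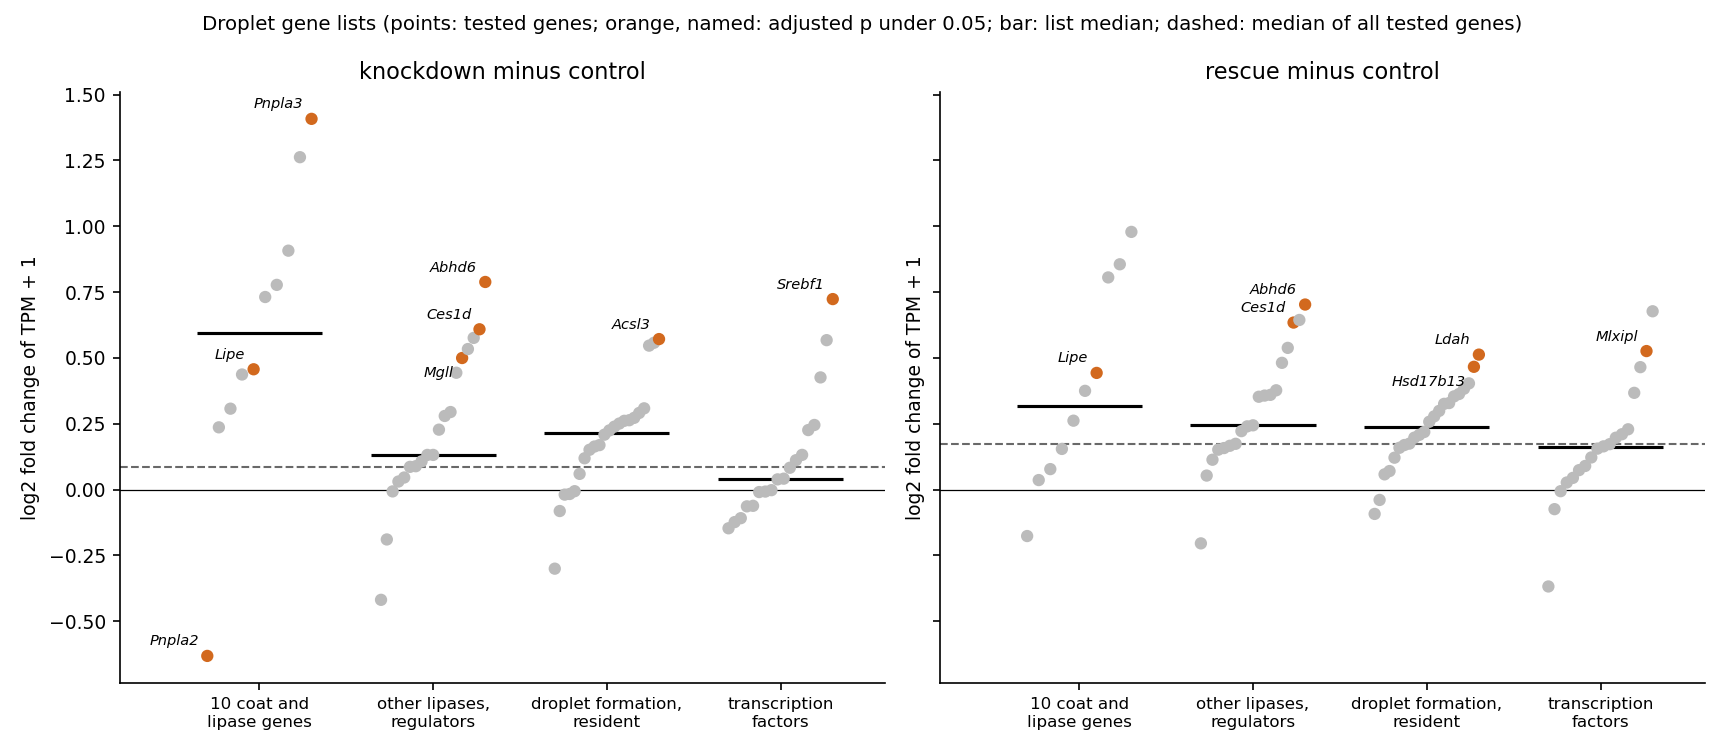
Log2 fold change of TPM + 1 for each tested gene of the 10-gene set and of the other droplet gene lists, after knockdown (left) and between rescue and control (right). The set of 10 spreads from -0.63 to 1.41 after knockdown, more widely than the other lists, whose medians are 0.13, 0.22 and 0.040 against 0.087 for all tested genes. Bars are list medians, dashed lines the median of all tested genes, and orange points have an adjusted p under 0.05.

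The summed TPM of 6 stellate cell markers, from cells that store retinyl ester droplets, was 73.9 to 116 in Ad-Ctrl, 82.0 to 121 in Ad-shmGULL and 105 to 111 in rescue, with 0 of 6 past the threshold in any comparison. The 6 macrophage markers summed to 414 to 734, 397 to 697 and 492 to 637 TPM in the same order, of which Marco alone passed after knockdown (log2 fold change -1.04, adjusted p = 0.164 from limma) and between rescue and control (-0.93, adjusted p = 0.169). The 6 T and NK cell markers summed to 17.97 to 59.9, 16.6 to 40.8 and 33.9 to 46.8 TPM, and Gzmb passed between rescue and knockdown (1.03, adjusted p = 0.411), with every rescue mouse above every knockdown mouse. The 6 hepatocyte markers summed to 74057 to 109804, 79827 to 93993 and 67555 to 81529 TPM, and Apoa1 passed, lower, after knockdown (-0.60, adjusted p = 0.115) and in rescue against control (-0.60, adjusted p = 0.104). Cps1 differed by -0.45 after knockdown without overlap (adjusted p = 0.0681). In that comparison Alb was at 0.024, Ttr at 0.14, Serpina1c at -0.12 and Hnf4a at -0.0093. Between rescue and knockdown Ttr (-0.39, adjusted p = 0.458) and Alb (-0.23, adjusted p = 0.706) had every rescue mouse below every knockdown mouse. Serpina1c (0.28), Cps1 (0.18), Hnf4a (0.17) and Apoa1 (0.00083) were positive there. The hepatocyte list median was 0.087, against 0.093 over all tested genes. Over all tested genes, the threshold was passed by 7.65% after knockdown, 3% between rescue and knockdown and 7.49% between rescue and control. Ranges lay wholly lower than in Ad-Ctrl for 2.06% of tested genes after knockdown. Between rescue and knockdown they lay wholly higher for 5.4% and wholly lower for 0.983%. No marker list had every gene at 0 in a group. The part of these markers in the droplet gene results was not tested.

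Likeness to the most variable members was measured as the root mean square difference between log2(TPM + 1) profiles over the 12 mice, each gene centred on its own mean. G0s2 varied most (SD 0.92 on the log2 scale, n = 12 mice), and the tested genes nearest to it were Pdk4, the kinase that shuts off pyruvate dehydrogenase (difference 0.39), Fgf21, a fasting hormone of the liver (0.40), and Acot2, a mitochondrial acyl-CoA thioesterase (0.45). Pdk4 averaged 6.47 TPM in Ad-Ctrl, 19.6 in Ad-shmGULL and 11.7 in rescue, Fgf21 4.72, 10.9 and 6.57 TPM, and Acot2 11.9, 33.1 and 25.8 TPM. Cidec (SD 0.82) lay nearest to the lncRNA Gm31600 (0.31), Serpina7 (0.32), which encodes thyroxine-binding globulin, and the pseudogene Gm9001 (0.37). Cidea (SD 0.89) lay nearest to Rtl8c (0.45), the small RNA Gm25435 (0.47) and the pseudogene Anp32-ps (0.51), all at a few TPM or less. Such likeness describes these 12 mice and was not tested.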

How the data were processed

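Liver RNA-Seq of 12 mice was used, 4 per group as the sample titles give them. The authors trimmed reads with fastp 0.23.2, checked them with FastQC 0.11.8, aligned them with HISAT2 2.2.1.0 to GRCm38.p6 and counted them on GENCODE VM24 genes. The submitters' processing notes also list featureCounts and Subread 2.0. The deposited values are TPM, made by the authors, and were used without further scaling. The libraries were strand-specific, but the strand setting of the counting is not given in the sources used here: reads of Plin4, Cidea, Cideb, Cidec, Pnpla2, Lipe and G0s2 could include those of a gene annotated on the opposite strand, and those of Pnpla3 of Mir6392 and Gm49513 on the same strand.

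Genes averaging 1 TPM or more were tested on log2(TPM + 1) with limma 3.58.1 in R 4.3.3 (3 groups, no covariate, empirical Bayes with a mean-variance trend), with Benjamini-Hochberg adjustment over all 16378 genes. A fold change on this scale understates that of low genes. Exact permutation tests of single genes and of the G0s2 to Pnpla2 ratio used SciPy 1.17.1, and figures matplotlib 3.10.9. The deviations of same-numbered mice of different groups had a median correlation of 0.018 (-0.0077 for different numbers), and numbers were not used as pairs.

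The 10 genes and all lists were chosen with earlier results of these data known. Named are all 10, list genes past the study's threshold (1 is not reported here), and the 3 nearest genes of the 3 most variable members. Plin1, Plin3, Mgll, Abhd5, Hsd17b13, Ppara, Cps1, Ttr, Alb, Serpina1c, Hnf4a and the adipocyte markers were named after their values were seen. Where nothing says that mice were handled separately, p-values measure only the spread between these samples. The alternatives changed the scaling (median-of-ratios or quantile), the pseudocount (0.1), the filter (none, 5 TPM, or protein-coding genes alone), the model (a pair of groups at a time, array weights, no trend, a replicate block) or the mice, leaving out each in turn. Promoter windows and coordinates came from RefSeq tables of GRCm38.p6, and overlapping genes from GENCODE vM39. No sample was left out.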

Additional observations from a re-analysis of the deposited data

Results flagged for a closer look

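Plin5 in Ad-shmGULL was singled out because 1 mouse stood far from the others of its group: replicate 1 was at 219 TPM, and the other 3 lay between 80.9 and 98.4 TPM. The gap to the nearest mouse was 0.873 of the group's whole range, above Dixon's critical value for 4 samples. In the same mouse Plin4, the neighboring gene, was at 41.7 TPM with a gap of 0.827 of the range, just under that value. Of 33 sets of values looked at (10 genes and the G0s2 to Pnpla2 ratio in 3 groups), 1 was singled out, and chance singles out about 1 in 20.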

How the results depend on the processing

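After knockdown none of the 10 differences changed sign in any alternative. The number past the study's threshold, 4, ran from 3 to 6 when each mouse was left out. Over all tested genes that number, 1253, ran from 1024 to 1646 in the same fits. Of the 3 genes with an adjusted p under 0.05, 0 were left with only the 2 groups compared, and the count ran from 0 to 3 when each mouse was left out (0 without Ad-Ctrl replicate 3 or replicate 4, 1 without Ad-Ctrl replicate 2 or Ad-shmGULL replicate 2). The same count over all tested genes fell from 529 to 33 with only the 2 groups compared. It was 165, 196 and 176 without Ad-Ctrl replicates 3, 4 and 2, and 190 without Ad-shmGULL replicate 2. The log2 ratio of G0s2 to Pnpla2 ran from 1.504 to 2.42 for knockdown against control, -1.43 to -0.59 for rescue against knockdown and 0.59 to 1.23 for rescue against control. Between rescue and knockdown, the number past the threshold, 0, was 1 with array weights and ran from 0 to 2 when each mouse was left out. For all tested genes this number, 492, was 579 with array weights and ran from 361 to 848 when each mouse was left out. Array weights turned Plin2 to 0.042 and Lipe to 0.023, and leaving out each mouse gave -0.12 to 0.029 for Plin2, -0.045 to 0.39 for Cidec and -0.064 to 0.043 for Lipe. For rescue against control, the number past the threshold, 1, was 0 with a mean of at least 5 TPM (which leaves Pnpla3 and Cidea untested), 0 with quantile normalization and 2 with array weights, and ran from 0 to 2 when each mouse was left out. For all tested genes this number, 1226, was 708, 701 and 1397 with those settings, and ran from 861 to 1692 when each mouse was left out. An adjusted p under 0.05, reached there by 1 gene, was reached by 0 with no filter, median-of-ratios scaling, quantile normalization or no trend, 3 with array weights, and 0 to 1 when each mouse was left out. Of all tested genes it was reached by 352 in the main fit, and by 9, 11, 11, 35 and 3184 with those settings in the same order. When each mouse was left out, it was reached by 3 to 1068 tested genes. Median-of-ratios scaling turned Plin5 to -0.17 and Cideb to -0.050, quantile normalization turned Plin5 to -0.13 and Cidea to -0.21, and leaving out each mouse gave -0.027 to 0.084 for Plin5 and -0.16 to 0.37 for Cidea. Apart from the settings that leave out mice or untest genes, the cause of these changes was not tested.

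The sample titles do not say whether the replicate numbers pair the mice. The correlation of same-numbered mice was over 0.1 in 2 of 12 pairs, and that of differently numbered mice in 5 of 36. Such correlations over all genes show no pairing but cannot exclude one. With the replicate number as a block, the number past the threshold was 4 after knockdown, 1 between rescue and knockdown and 1 between rescue and control, and an adjusted p under 0.05 was reached by 3, 0 and 0 genes. Of all tested genes, 1275, 516 and 1239 passed the threshold with that block, and 418, 0 and 71 had an adjusted p under 0.05. TPM keeps no read depth, so the precision of genes near 1 TPM, such as Cidea and Pnpla3, is unknown.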
